A study of Coryphaena hippurus with 32 samples.

Results

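A set of 22 genes was far more abundant in mahi-mahi (Coryphaena hippurus) embryos at 24 hours post fertilization (hpf) than at 48 and 96 hpf. They were chosen on the unexposed control embryos: a mean of at least 30 reads per 1000000 counted reads (CPM) at 24 hpf, and means at 48 and 96 hpf each at most 0.25 of that. Of 12653 gene identifiers, 3489 reached the 24 hpf level, 26 of those (0.745%) also met both later limits, and 4 of the 26 (ASTL, DDC, AMD1 and SRL) were set aside by name, as belonging to other gene groups. The early level and the later loss in controls are therefore the definition of the set and are given below as description, without a test. What was not used to choose the genes is their course in the 2 oils.

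The study asked how transcription in whole embryos and larvae changes with Deepwater Horizon crude oil. Slick embryos were kept in seawater with a water fraction of weathered oil skimmed from the sea surface, source embryos in the same preparation of oil from the well (called mass in the sample names), and control embryos in seawater alone. The labels give 1 g/l for both oils and 0 g/l for controls, and exposure began with freshly fertilized embryos and was not renewed. Each oil was sampled at 24, 48 and 96 hpf beside controls of the same age, and each sample was a pool of 30 embryos or larvae of wild-caught, tank-spawning broodstock. The 32 samples gave 27 libraries, 3 in each of 9 groups, because 5 pairs of control samples at 48 and 96 hpf did not differ beyond sampling noise (chi-square p of 0.014 for 1 pair and of 0.38 or more for the other 4, against a limit of 0.001) and were counted as 1 each, named by both sample numbers (library 8-9). No label says that replicates came from separate spawns, and p-values here refer to the variation among these pools.

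At 24 hpf a fast-developing marine fish embryo is finishing its body axis, laying down somites and assembling its first striated muscle. Dividing and pigment-forming cells make purine nucleotides anew, and several regulators of the posterior body and of early progenitors are switched off as tissues mature. Sterol O-acyltransferases turn cholesterol into esters, the form in which cells store it.

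The genes fall into roles as follows. PAICS and PPAT are enzymes of purine synthesis, and SRM makes spermidine. UNC45B is a chaperone that folds myosin, ITGB1BP2 (melusin) is an integrin-binding protein of striated muscle, NEXN and OBSL1 belong to the sarcomere cytoskeleton, and TMEM8C (myomaker) is the membrane protein by which myoblasts fuse. PLOD1 hydroxylates collagen lysines, HAS3 makes hyaluronan and ADAMTS16 is a secreted metalloprotease. SOAT1 and SOAT2 esterify sterols. NR6A1 is a nuclear receptor of early mouse embryos, CDX4 is a homeobox factor of the posterior body, PRTG is an adhesion receptor of the early neural tube and somites, and GREB1 is a cofactor of the oestrogen receptor in human cells. FXR2 binds RNA, CYLD removes ubiquitin chains, TACR1 is the substance P receptor, TMPRSS9 is a membrane serine protease and PLEKHA4 binds membrane lipids.

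The kept count lines summed to 1895511 to 2777955 per sample. Reads of the fish were counted under human gene identifiers, so which fish paralog gave the reads is not known. Whole animals were pooled, so fewer cells of a type and less RNA per cell cannot be told apart. Markers of many organs were present: muscle CKM, notochord COL2A1 and, at 24 hpf, hatching-gland ASTL were abundant, pancreatic PRSS1 had a median of 4.6 CPM at 24 hpf and 4959.6 CPM at 96 hpf, and liver APOA1 was at 0 in every library. The median gene's CPM at 48 hpf against 24 hpf was shifted by -0.23, -0.18 and -0.18 on the log2 scale in slick, source and control embryos. Tested changes below use TMM scaling, which removes that shift. With TMM-scaled CPM the same rule kept 17 of the 22 genes and lost PAICS, PLOD1, SOAT1, SOAT2 and ADAMTS16, which lie near the 0.25 limit.

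**Figure D1:**
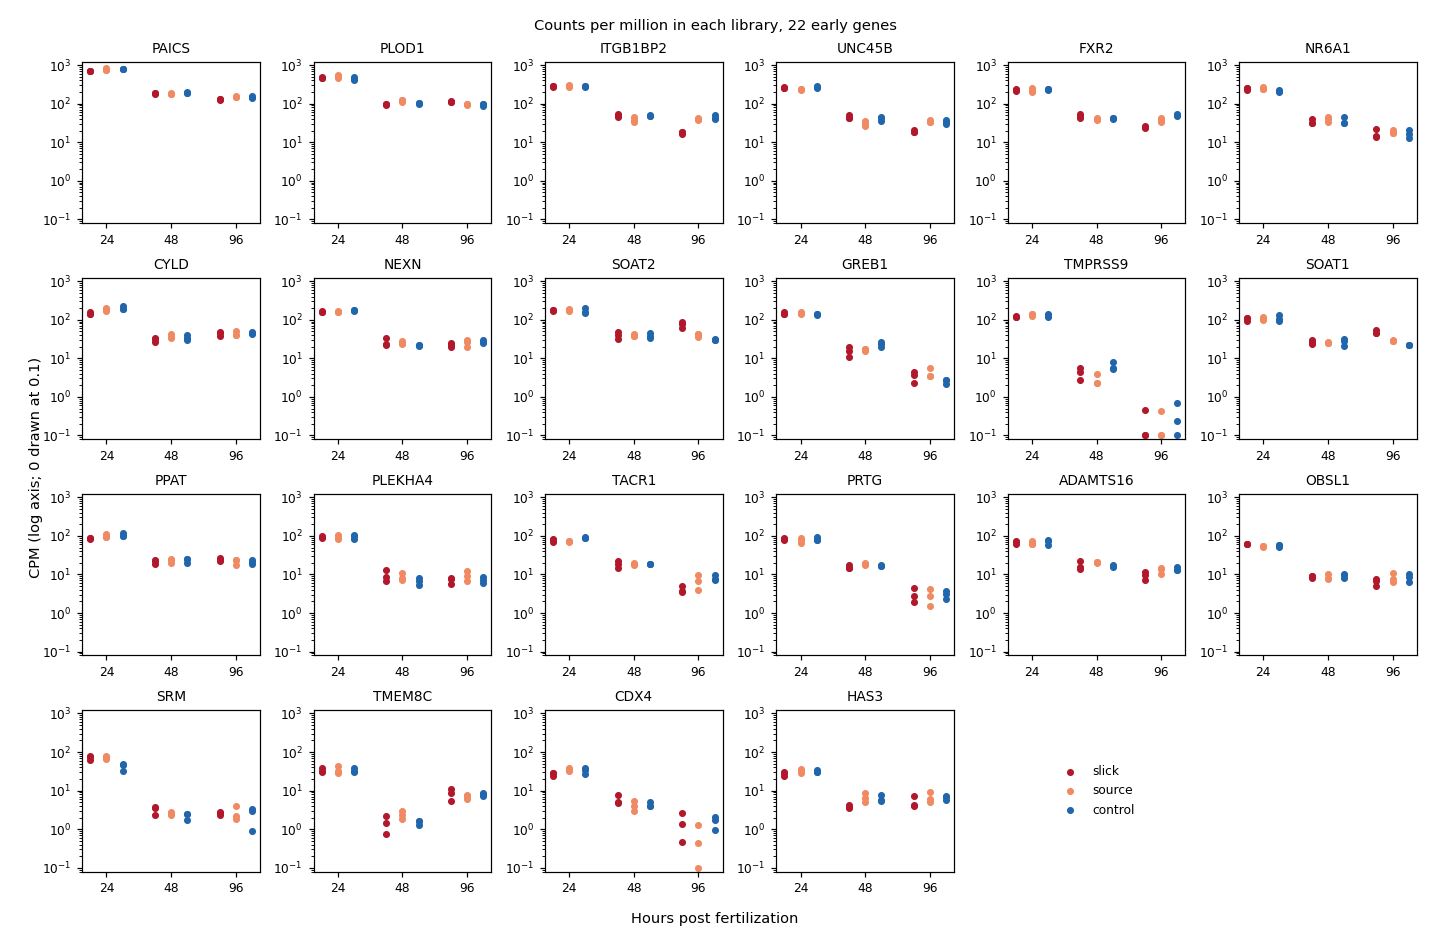
CPM (log axis, 0 drawn at 0.1) of the 22 genes in each of 27 libraries at 24, 48 and 96 hpf, with slick left of source left of control. In every panel the points at 24 hpf lie above those at 48 and 96 hpf in all 3 conditions.

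In controls the set ran from PAICS with 778 ± 12.4 CPM at 24 hpf to HAS3 with 31.2 ± 2.59 CPM (SD, n = 3). Together the 22 genes held 0.361% to 0.394% of all counts at 24 hpf, 0.0661% to 0.0774% at 48 hpf and 0.0554% to 0.0619% at 96 hpf over the libraries of all 3 conditions. At 96 hpf this sum was 0.0554% to 0.0604% in slick, 0.057% to 0.0619% in source and 0.0582% to 0.0618% in control libraries, which overlap. Nearest inside the level limit were HAS3, CDX4 at 33.4 CPM and TMEM8C at 34 CPM, and nearest outside were FAM78A at 27.9, P3H4 at 28.1 and SYNPO2L at 28.7 CPM. Nearest inside the ratio limit were ADAMTS16, PAICS and SOAT1, whose higher later mean was 24.3%, 24.5% and 24.9% of the 24 hpf mean. ODC1, which makes the putrescine that SRM uses, lay just outside at 25% (just above the limit before rounding), followed by ZBTB16 at 25.4% and SMYD2 at 25.8%.

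The loss ranged between 2 forms in controls. TMPRSS9 was lower at each age than at the one before: its mean control CPM was 129 at 24 hpf, 6.36 at 48 hpf and 0.305 at 96 hpf, the last from 4 counts in 3 libraries. GREB1 (139, 23.3 and 2.5 CPM), PRTG (84.6, 16.7 and 3.04 CPM), CDX4 (33.4, 4.27 and 1.59 CPM) and NR6A1 (212, 35.8 and 16.7 CPM) had the same stepwise course. The other form was a plateau after 48 hpf, as in PLEKHA4 (96.5, 6.79 and 7.35 CPM), HAS3 (31.2, 6.16 and 6.61 CPM) and SRM (42.9, 2.23 and 2.45 CPM). PAICS (778, 191 and 148 CPM) and UNC45B (269, 40.8 and 34.1 CPM) lay between these forms. Their log2 changes from 48 to 96 hpf on the TMM scale were -0.65 and -0.56. TMEM8C stood apart, with 34 CPM at 24 hpf, 1.54 CPM at 48 hpf and 8.06 CPM at 96 hpf in controls. From 48 to 96 hpf the control change on the TMM scale was below 0 for 17 and above 0 for 5 of the 22 genes, with a median of -0.48 against 0.05 for all genes.

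The fall after 24 hpf was also present in both oils. From 24 to 48 hpf all 22 genes fell in slick embryos (edgeR quasi-likelihood test, Benjamini-Hochberg adjusted p below 0.05), against 21.8% of all genes tested that were called lower, with a median log2 change of -2.23 for the set and 0.00 for all genes. All 22 also fell in source embryos, against 21.8% of all genes, with a median of -2.34. The untested control median was -2.36. The genes were chosen by the same fall in controls of these ages, so nothing is read from how the oil counts and medians stand against all genes. In slick embryos the smallest fall was that of PAICS (log2 change -1.70 ± 0.06, standard error) and the largest that of TMPRSS9 (-4.59 ± 0.17). In source embryos the smallest was that of ADAMTS16 (-1.51 ± 0.14) and the largest again that of TMPRSS9 (-5.38 ± 0.18).

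In slick embryos SRM and TMEM8C fell nearly as steeply as TMPRSS9, and in source embryos both fell less steeply than TMPRSS9. SRM changed by -4.28 ± 0.20 in slick and -4.64 ± 0.22 in source embryos. TMEM8C changed by -4.26 ± 0.29 in slick and -3.64 ± 0.27 in source embryos, on 12 and 17 counts in 3 libraries at 48 hpf. PLEKHA4 and GREB1 followed, at -3.06 ± 0.15 and -3.05 ± 0.12 in slick and -3.23 ± 0.16 and -2.97 ± 0.12 in source embryos. The muscle chaperone UNC45B changed by -2.30 ± 0.09 in slick and -2.76 ± 0.10 in source embryos, and ITGB1BP2 by -2.33 ± 0.08 in slick and -2.65 ± 0.09 in source embryos.

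Neighbouring genes of 2 of these roles did not all follow. The purine enzymes outside the set moved in both directions from 24 to 48 hpf: PFAS fell to 0.395-fold in slick and 0.387-fold in source embryos, ATIC to 0.32-fold in slick and 0.25-fold in source, GART to 0.372-fold in slick and 0.42-fold in source, and IMPDH1 to 0.62-fold in slick and 0.515-fold in source, while ADSL rose 1.95-fold in slick and 2.14-fold in source embryos. They belong to a list of 34 neural crest and pigment genes that also holds PAICS and PPAT. Of its 25 tested genes, 13 rose and 8 fell in slick, where 23% of all genes tested rose and 21.8% fell. In source embryos 10 rose and 8 fell, where 23.8% of all genes rose and 21.8% fell, and the melanin genes TYRP1, DCT, PMEL and TYR were among those that rose in both. A somite and early muscle list of 29 holds UNC45B and TMEM8C. Of its 15 tested genes, 3 rose and 9 fell in slick and 2 rose and 9 fell in source embryos, beside the same shares of all genes. The falling genes of each list include its members, which were chosen by their fall in controls. Nothing is therefore read from how these counts stand against all genes. The muscle regulators MYOD1 and MYOG of the muscle list are outside the set. They changed by -1.67 and -1.77 in slick and by -1.38 and -1.44 in source embryos (log2). Members had to fall to 0.25 or less in controls, so a smaller fall of genes outside the set is not a result.

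**Figure D2:**
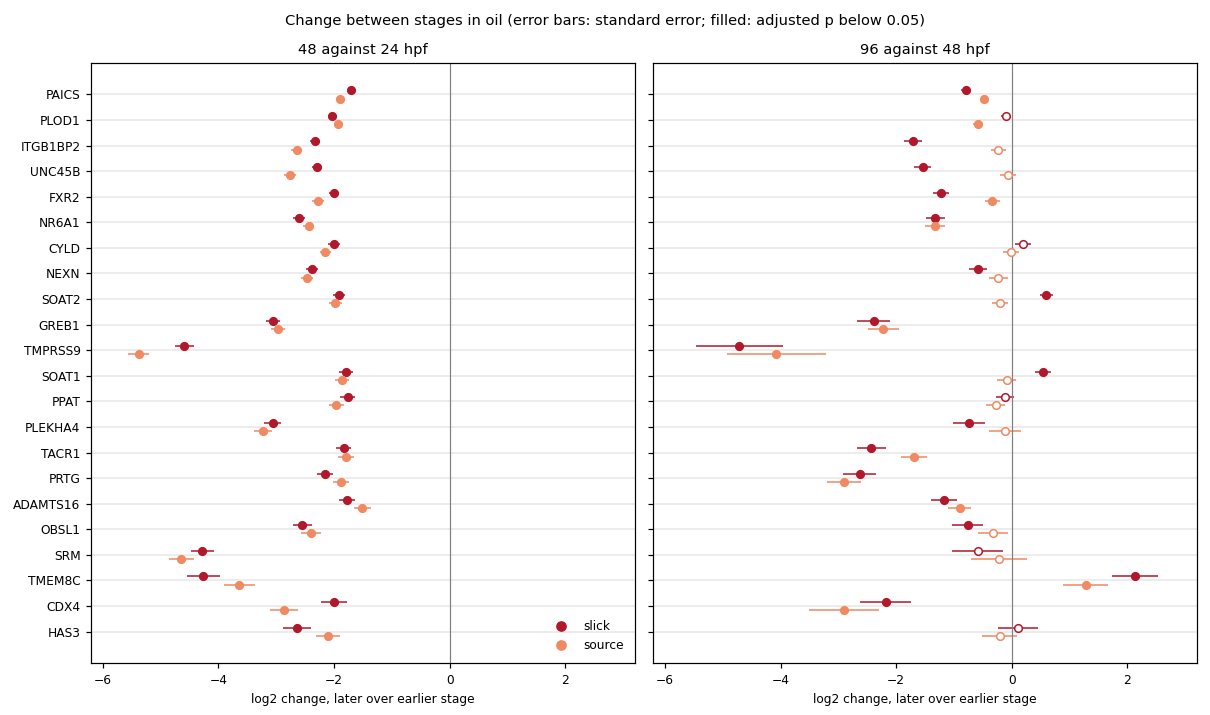
Log2 change of each of the 22 genes from 24 to 48 hpf (left) and from 48 to 96 hpf (right) in slick and source embryos, with standard errors; filled points have an adjusted p below 0.05. On the left all points lie below 0. Among the filled points on the right, SOAT1, SOAT2 and TMEM8C lie above 0 in slick and TMEM8C alone in source.

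From 48 to 96 hpf the 2 oils were less alike in their counts of calls. In slick embryos 14 of the 22 genes fell further, against 24.4% of all genes called lower, and 3 rose (SOAT2, SOAT1 and TMEM8C), against 30.7% of all genes called higher. In source embryos 10 fell, against 23.6% of all genes, and 1 (TMEM8C) rose, against 29.2%. The genes were chosen with a limit on their control means at 48 and 96 hpf. Nothing is therefore read from how these counts stand against all genes. These stage changes share the 48 hpf libraries with the earlier ones, and each called gene had the same direction in unscaled CPM. TMM scaling factors were 0.871 to 0.951 at 48 hpf and 1.06 to 1.1 at 96 hpf, which makes these changes lower than those in CPM. FXR2 in source was called at a log2 change of -0.34, with a CPM ratio of 96 over 48 hpf of 0.931. NEXN in slick was called at -0.58, with a CPM ratio of 0.826.

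The stepwise genes went on falling in both oils. GREB1 changed by -2.39 ± 0.28 in slick and -2.22 ± 0.27 in source embryos, PRTG by -2.63 ± 0.29 and -2.90 ± 0.29, and NR6A1 by -1.32 ± 0.17 and -1.33 ± 0.17. TACR1 changed by -2.43 ± 0.25 in slick and -1.69 ± 0.23 in source embryos. CDX4 was left with 1, 3 and 6 counts in slick and 0, 1 and 3 counts in source libraries at 96 hpf. TMPRSS9 had 1, 0 and 0 counts in slick, 0, 0 and 1 in source and 1, 3 and 0 in control libraries at 96 hpf, so its fall beyond 48 hpf has no measurable size.

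TMEM8C was the member called higher from 48 to 96 hpf in both oils. Its 3 slick libraries held 2.22, 1.44 and 0.765 CPM at 48 hpf and 8.45, 10.7 and 5.4 CPM at 96 hpf, a log2 change of 2.13 ± 0.40 (adjusted p = 3.5e-06). Its source libraries held 2.36, 3.03 and 1.85 CPM at 48 hpf and 7.43, 7.62 and 6.04 CPM at 96 hpf, a log2 change of 1.28 ± 0.39 (adjusted p = 0.0035). The libraries of the 2 ages did not overlap in either oil, and the level at 96 hpf stayed below that of every 24 hpf library.

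**Figure D3:**
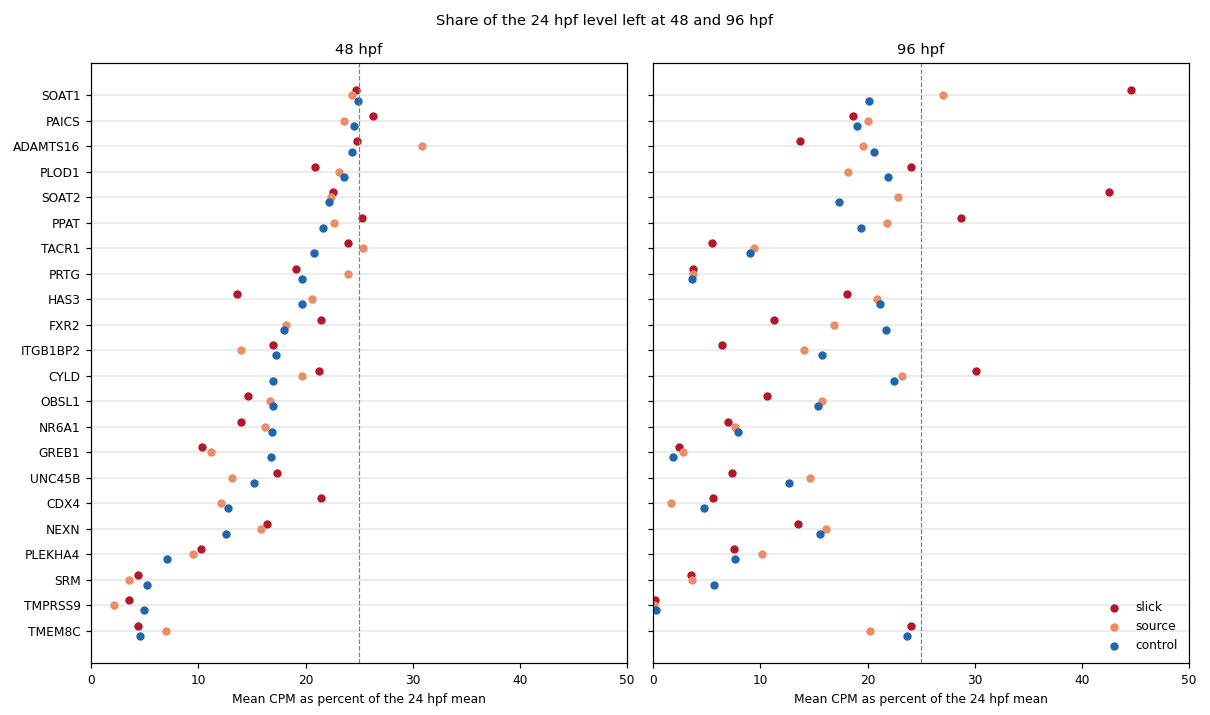
Mean CPM at 48 hpf (left) and 96 hpf (right) as a percent of the 24 hpf mean of the same condition, for slick, source and control embryos; the dashed line marks the 25% limit that chose the genes in controls. At 96 hpf the slick points of SOAT1 (44.6%) and SOAT2 (42.5%) lie far to the right of their control points, and those of ITGB1BP2 (6.39%) and UNC45B (7.34%) to the left.

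Measured as what was left of the 24 hpf level, the median gene kept 18.2% in slick, 17.4% in source and 17.1% in control embryos at 48 hpf. At 96 hpf the medians were 10.9% in slick, 15.9% in source and 15.6% in control embryos, and the highest single values were 44.6%, 27% and 23.7%. The control limit of 0.25 is part of the definition, so an excess of oil values over it is not a result. Applied to the slick libraries, the same rule would choose 19 genes, of which 15 are among the 22 (78.9% of those chosen and 68.2% of the 22). The 7 that it would not choose are PAICS, CYLD, SOAT2, SOAT1, PPAT, CDX4 and HAS3. CDX4 and HAS3 failed only the level limit of 30 CPM, with means of 27.3 and 28.2 CPM in slick at 24 hpf. These 2 genes kept 21.4% and 13.6% at 48 hpf and 5.58% and 18.1% at 96 hpf in slick embryos. Applied to the source libraries the rule would choose 27 genes, 19 of them among the 22 (70.4% and 86.4%), without SOAT1, TACR1 and ADAMTS16.

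The next question is whether oil changed the level of these genes at a given age. Slick and source embryos were each set against the same controls, and the controls had chosen the genes, so the 2 sets of changes are given side by side and not related to each other. All 22 genes were tested at 24 hpf, 20 at 48 hpf (without SRM and TMEM8C) and 17 at 96 hpf (without GREB1, TMPRSS9, PRTG, SRM and CDX4), the rest being too low for the count filter.

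At 24 hpf the set was at its height. The control values of that age helped choose the genes, so nothing is read from how the counts below stand against all genes. In slick embryos 2 of 22 were called, SRM higher and CYLD lower, against 0.580% of all genes, and in source embryos 4 of 22, SRM and PLOD1 higher and UNC45B and TACR1 lower, against 1.69% of all genes. The median log2 change of the 22 was -0.07 in both oils. With the reads of all lines of an identifier summed, no member was called in either oil at 24 hpf, with log2 changes for slick of 0.74 for SRM (adjusted p = 0.19) and -0.53 for CYLD (adjusted p = 0.12), and for source of 0.73 for SRM (adjusted p = 0.11). SRM has 1 line, so its own counts were the same in that fit. DESeq2 called PAICS alone in slick and PLOD1 alone in source embryos, but its filter left 16 and 12 of the 22 genes without an adjusted p, SRM among them in both and CYLD in slick.

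SRM, the spermidine synthase, was the one member called higher in both oils at 24 hpf, against the same controls. It had 81.3, 75.8 and 63.6 CPM in slick, 75.9, 76.7 and 67.7 CPM in source and 49.1, 33.2 and 46.5 CPM in control libraries. Every oil library stood above every control library. The slick level was 1.68-fold the control level (log2 0.75 ± 0.12, adjusted p = 1.4e-05) and the source level 1.66-fold (log2 0.73 ± 0.12, adjusted p = 1.1e-05), and both calls held without any 1 library. At 48 hpf SRM was down to 5 to 12 counts per library in all conditions, too few for a test.

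CYLD was lower in slick embryos. Its libraries held 138, 138 and 156 CPM in slick, 172, 194 and 199 CPM in source and 223, 187 and 190 CPM in control embryos. The slick libraries lay below all others, at 0.706-fold the control level (log2 -0.50 ± 0.08, adjusted p = 2.1e-06). CYLD was also the only member called between the oils at 24 hpf, at 0.771-fold in slick against source (log2 -0.38 ± 0.08, adjusted p = 0.0019), where 0.219% of all genes were called. That call ended without slick library 1 (adjusted p = 0.053) or source library 11 (adjusted p = 0.055). By 48 hpf the groups overlapped, at 31.1, 34.6 and 26.4 CPM in slick, 41.7, 36.4 and 33.3 CPM in source and 29.1, 39.9 and 32.9 CPM in control libraries.

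The 3 other source calls at 24 hpf were small. PLOD1 was 1.15-fold higher (log2 0.20 ± 0.05, adjusted p = 0.025), with 526, 556 and 462 CPM in source and 477, 430 and 397 CPM in control libraries, which overlap. UNC45B was at 0.86-fold (log2 -0.22 ± 0.06, adjusted p = 0.045), with 242, 226 and 246 CPM in source and 257, 278 and 271 CPM in control libraries. TACR1 was at 0.779-fold (log2 -0.36 ± 0.10, adjusted p = 0.031), with 72.7, 70.7 and 73.7 CPM in source and 90.2, 94.5 and 86.4 CPM in control libraries. The source libraries of UNC45B and TACR1 lay below all control libraries. The calls of PLOD1 and UNC45B ended without control library 2 (adjusted p = 0.12 and 0.16), control library 3 (0.34 and 0.2), source library 10 (0.14 and 0.081) or source library 11 (0.29 and 0.27). TACR1 lost its call without any 1 of the 6 libraries, the 3 control and 3 source ones (adjusted p = 0.061 to 0.13), and with its lines summed its log2 change was -0.14 (adjusted p = 0.55).

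The purine enzymes did not pass the test in slick embryos at 24 hpf. PPAT had 83.1, 86.4 and 90.1 CPM in slick and 102, 121 and 101 CPM in control libraries (log2 -0.35 ± 0.09, adjusted p = 0.053). PAICS had 710, 704 and 700 CPM in slick and 791, 766 and 778 CPM in control libraries (log2 -0.17 ± 0.05, adjusted p = 0.083). The slick libraries of both genes lay below all control libraries. In the authors' deposited table of slick against control at 24 hpf PAICS had an adjusted p below 0.05, at a log2 change of -0.16. Of the other genes, 16 had no adjusted p in that table, among them CYLD at a log2 change of -0.40 ± 0.08 and SRM at 0.43 ± 0.10.

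At 48 hpf every gene of the set was below its 24 hpf level in every condition. The control values of 48 hpf also helped choose the genes, so nothing is read from how counts against control stand against all genes. In slick embryos 1 of 20 tested members was called, GREB1, against 3.30% of all genes, and in source embryos 0 of 20, against 1.32%. In the source comparison 6 of the 20 members had an unadjusted p below 0.05 by edgeR's test, as had 1027 of all 8060 genes tested. DESeq2, which left 20 of the 22 genes without an adjusted p, called 0 members. GREB1 had 15.2, 19.4 and 10.7 CPM in slick, 17.3, 17.8 and 15.7 CPM in source and 20, 23.5 and 26.6 CPM in control libraries. Both oils lay below all control libraries, slick at 0.654-fold (log2 -0.61 ± 0.16, adjusted p = 0.019) and source at a log2 change of -0.52 ± 0.17 (adjusted p = 0.11). The slick call ended without control library 8-9 (adjusted p = 0.14), slick library 4 (0.067) or slick library 6 (0.23), and DESeq2 did not make it.

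In source embryos at 48 hpf the muscle chaperone UNC45B and the protease TMPRSS9 stood nearest to a call. UNC45B had 26, 35.1 and 32.3 CPM in source and 42.5, 35.1 and 44.7 CPM in control libraries (log2 -0.45 ± 0.13, adjusted p = 0.055). TMPRSS9 had 6, 9 and 5 counts in source and 26, 25 and 40 counts in the deeper control libraries, a log2 change of -1.21 ± 0.35 (adjusted p = 0.067). Both were called with no low-count filter, with all stages in 1 fit and with all control columns as deposited, and UNC45B also without control library 6-7. Between the oils 1 of 20 members was called, against 0.744% of all genes: UNC45B, with 42.9, 50 and 41.3 CPM in slick libraries, was 1.52-fold higher in slick than in source embryos (log2 0.60 ± 0.14, adjusted p = 0.014). That call ended without slick library 5 (adjusted p = 0.17), source library 13 (0.19) or source library 15 (0.055).

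**Figure D4:**
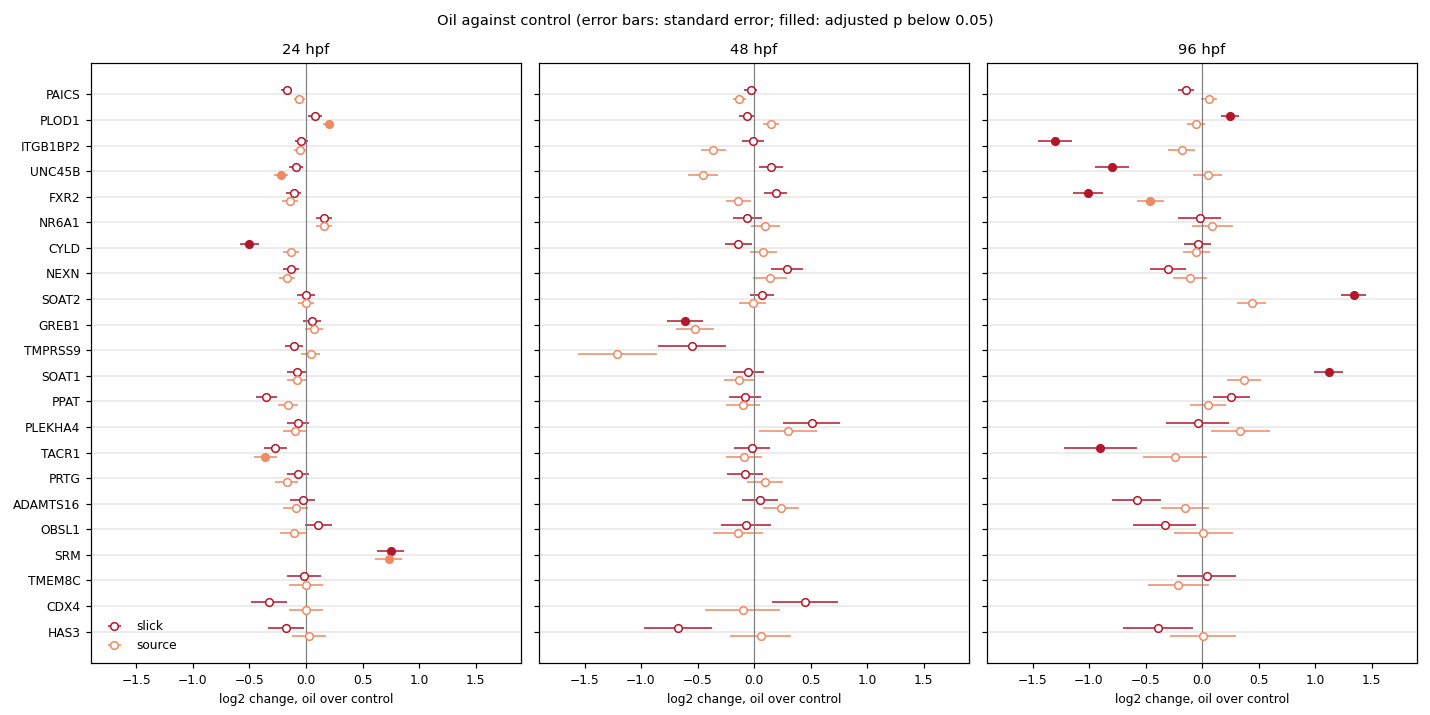
Log2 change of slick and of source embryos over control embryos for each of the 22 genes at 24, 48 and 96 hpf, with standard errors; filled points have an adjusted p below 0.05, and genes below the count filter have no point. Filled points at 24 hpf include SRM in slick (0.75) and source (0.73) and CYLD in slick (-0.50), the open source point of TMPRSS9 (-1.21) lies farthest to the left at 48 hpf, and at 96 hpf the slick points of SOAT2 (1.34) and SOAT1 (1.12) stand to the right and those of ITGB1BP2 (-1.30), FXR2 (-1.01) and UNC45B (-0.80) to the left.

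At 96 hpf the slick embryos differed. The sterol esterification enzymes SOAT1 and SOAT2 and the collagen lysine hydroxylase PLOD1 were higher, and the muscle proteins ITGB1BP2 and UNC45B, the RNA-binding FXR2 and the receptor TACR1 were lower. These were 7 of 17 tested members, against 21.2% of all genes, with a median log2 change of -0.14 for the 17 and 0.01 for all genes. The control values of 96 hpf also helped choose the genes, so nothing is read from how counts against control stand against all genes. In source embryos 1 of 17 was called, FXR2, against 1.10% of all genes. In the authors' deposited table of slick against control at 96 hpf, 6 of the 22 genes had an adjusted p below 0.05 (the same 7 without TACR1), where 5 genes had no adjusted p. The share of all genes below 0.05 in that table is not given here, so nothing is read from this count. In the authors' deposited tables of slick at 48 hpf and of source at 24, 48 and 96 hpf none was below 0.05, but 7 of the 22 genes had no adjusted p in slick at 48 hpf, and 15, 20 and 21 had none in source at 24, 48 and 96 hpf.

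SOAT2 had 79.8, 85.9 and 60.3 CPM in slick, 34.7, 43.9 and 43.6 CPM in source and 30.4, 29.3 and 30.8 CPM in control libraries at 96 hpf. Every slick library exceeded every source library, and every source library every control library. The slick level was 2.54-fold the control level (log2 1.34 ± 0.11, adjusted p = 2.3e-20) and 1.87-fold the source level (log2 0.90 ± 0.12, adjusted p = 3.4e-10). The source level did not pass the test against control (log2 0.44 ± 0.13, adjusted p = 0.078).

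SOAT1 had the same order, with 45.1, 52.7 and 44.1 CPM in slick, 27.7, 29.6 and 28.9 CPM in source and 21.5, 22.2 and 22.7 CPM in control libraries. The slick level was 2.17-fold the control level (log2 1.12 ± 0.13, adjusted p = 2.3e-12) and 1.67-fold the source level (log2 0.74 ± 0.14, adjusted p = 1.3e-05). Source against control was at a log2 change of 0.37 ± 0.15 (adjusted p = 0.31). Between 48 and 96 hpf in slick embryos SOAT2 rose by 0.60 ± 0.12 and SOAT1 by 0.54 ± 0.14 on the log2 scale, and neither change in source embryos passed the test (-0.20 ± 0.14 and -0.09 ± 0.16). The 2 genes are paralogs counted under separate human identifiers, and their CPM ratio stayed between 1.25 and 1.86 in all 27 libraries, so reads of 1 fish gene split between both identifiers cannot be told apart from 2 genes that move together.

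ITGB1BP2 had 16.4, 18.7 and 18.9 CPM in slick, 36.6, 39.9 and 42.7 CPM in source and 40.7, 51.3 and 41.5 CPM in control libraries at 96 hpf. The slick libraries lay well below both other groups, which overlapped each other. The slick level was 0.406-fold the control level (log2 -1.30 ± 0.15, adjusted p = 2.1e-13) and 0.461-fold the source level (log2 -1.12 ± 0.16, adjusted p = 9.6e-09). In slick embryos the gene lost a further 1.71 ± 0.15 on the log2 scale after 48 hpf, while its change in source embryos did not pass the test (-0.23 ± 0.13).

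UNC45B had 18.8, 20.1 and 18 CPM in slick, 33.7, 36.7 and 34.1 CPM in source and 34.1, 30.2 and 37.9 CPM in control libraries. Again the slick libraries lay below all others, at 0.575-fold the control level (log2 -0.80 ± 0.15, adjusted p = 1.1e-05) and 0.554-fold the source level (log2 -0.85 ± 0.16, adjusted p = 2.4e-05). Not all muscle RNA was lower. The 3 detected skeletal muscle markers of 4 (MYLPF, TNNT3 and CKM, with no line for ACTA1) summed to 37605 to 38268 CPM in slick, 29122 to 32591 CPM in source and 30059 to 31188 CPM in control libraries. The slick sums lay above all others. CKM made up most of the sum, with a median of 25738.3 CPM over all 96 hpf libraries, beside 5183.3 CPM for MYLPF and 276 CPM for TNNT3. The sarcomere genes NEXN (log2 -0.30) and OBSL1 (log2 -0.33) and the fusion protein TMEM8C did not pass the test. Of 14 tested genes of the somite and early muscle list, 4 fell and 1, the acetylcholine receptor subunit CHRNA1 (1.34-fold), rose in slick embryos, where 10.4% of all genes fell and 10.9% rose. MYOD1 was at 0.641-fold among those that fell, which include the member UNC45B. Source embryos had no call on the list, against 1.10% of all genes called.

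FXR2 had 26.8, 23.8 and 25.2 CPM in slick, 32.7, 36.7 and 42.7 CPM in source and 51.7, 53.6 and 48.1 CPM in control libraries. The 3 groups did not overlap. The slick level was 0.497-fold the control level (log2 -1.01 ± 0.13, adjusted p = 6.5e-11), and the source level was 0.725-fold (log2 -0.46 ± 0.12, adjusted p = 0.015). Slick was 0.685-fold source (log2 -0.55 ± 0.15, adjusted p = 0.0051). The source call ended without control library 10-11 (adjusted p = 0.088), control library 12-13 (0.11), source library 16 (0.24) or source library 17 (0.12), and that between the oils without source library 18 (0.087).

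PLOD1 had 116, 111 and 111 CPM in slick, 95, 89.6 and 95.8 CPM in source and 98.2, 99 and 88.3 CPM in control libraries. The slick libraries stood above all others, at 1.19-fold the control level (log2 0.25 ± 0.08, adjusted p = 0.015) and 1.23-fold the source level (log2 0.30 ± 0.09, adjusted p = 0.01). The call against control ended without control library 14 (adjusted p = 0.051) or slick library 7 (0.07), and that against source without source library 17 (0.066). DESeq2 made neither call (adjusted p = 0.1 against control and 0.081 against source). TACR1 had only 11, 8 and 8 counts in slick and 31, 33 and 22 counts in control libraries, at 0.537-fold (log2 -0.90 ± 0.32, adjusted p = 0.028). Its call ended without control library 14 (adjusted p = 0.086), slick library 8 (0.11) or slick library 9 (0.12), with DESeq2 (log2 -0.94, adjusted p = 0.15) and with its lines summed (log2 -0.47, adjusted p = 0.34). In the authors' deposited table it had an adjusted p of 0.72.

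Between slick and source embryos at 96 hpf 6 of 17 members were called, against 13.5% of all genes: PLOD1, SOAT1 and SOAT2 higher and ITGB1BP2, UNC45B and FXR2 lower in slick. The change itself sets slick against source libraries, but the control libraries that helped choose the genes were among the 9 libraries of the same fit. They entered its low-count filter and TMM scaling. The count is therefore not independent of the controls, and nothing is read from how it stands against all genes. SOAT1 and SOAT2 may also hold reads of the same fish gene, so their calls may not be separate. The purine enzymes PAICS and PPAT were not called between any groups at 96 hpf. The 5 other purine enzymes named above were picked after their values were seen. Of these, PFAS, GART and IMPDH1 fell to 0.605-fold, 0.547-fold and 0.628-fold in slick against control embryos, where 10.4% of all genes were called lower. ATIC (0.912-fold, adjusted p = 0.56) and ADSL (1.02-fold, adjusted p = 0.86) did not pass the test.

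Several organ markers differed in the same slick libraries at 96 hpf. The 4 lens markers summed to 540 to 811 CPM in slick, 1247 to 1320 CPM in source and 1312 to 1400 CPM in control libraries. The 2 detected heart markers of 3 summed to 10.8 to 16.6, 19 to 28.2 and 23.2 to 30.2 CPM, the 2 detected blood markers of 4 to 113 to 118, 150 to 171 and 154 to 167 CPM, and the 3 notochord markers to 3641 to 3932, 4592 to 5056 and 5473 to 6575 CPM, in slick, source and control libraries in that order. The 2 liver markers with counts (APOA1 was at 0) summed to 95.3 to 109, 186 to 255 and 156 to 193 CPM. COL2A1 made up nearly all of the notochord sum, with a median of 4699.0 CPM over all 96 hpf libraries, beside 22.9 CPM for SHH and 8.06 CPM for T. That sum is in effect the level of 1 gene. The 3 pancreas markers summed to 5612 to 6645 CPM in slick, 5829 to 6486 CPM in source and 5226 to 5582 CPM in control libraries. Those of neurons, epidermis and hatching gland overlapped between slick and control. The part of these organ differences in the results on the 22 genes was not tested.

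Whether the course after 24 hpf itself differed between oil and control was tested as an interaction, the oil effect at a later age minus that at 24 hpf. The control course in this contrast is the one on which the genes were chosen, so the counts below describe the set and nothing is read from their standing against the share of all genes. From 24 to 48 hpf 1 of 22 members was called for slick, GREB1, against 0.674% of all genes, with a steeper fall than in controls (log2 -0.67 ± 0.17, adjusted p = 0.04). For source 0 of 22 were called, against 0.146% of all genes. An unadjusted p below 0.05 by edgeR's test was held by 3 of the 22 and by 707 of all 8898 genes tested. DESeq2 also called 0, with 13 of the 22 genes left without an adjusted p. The GREB1 call ended without any 1 of 8 of the 12 libraries (adjusted p = 0.057 to 0.38): control 1 and 2, slick 1 and 3, control 6-7 and 8-9, and slick 4 and 6.

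From 24 to 96 hpf 6 of 22 members were called for slick, against 7.46% of all genes. The courses of ITGB1BP2 (log2 -1.30 ± 0.16), FXR2 (-0.94 ± 0.15) and UNC45B (-0.75 ± 0.17) ended lower than in controls, with adjusted p of 3.8e-10, 1.3e-06 and 0.00082. Those of SOAT2 (1.30 ± 0.15) and SOAT1 (1.16 ± 0.17) ended higher, with adjusted p of 1e-11 and 7.1e-08. The contrast was also above 0 for PPAT (0.57 ± 0.19, adjusted p = 0.042). Its slick and control libraries overlapped at 96 hpf (log2 0.26 ± 0.16, adjusted p = 0.27). At 24 hpf its slick libraries had lain below all control libraries (log2 -0.35 ± 0.09, adjusted p = 0.053). PPAT lost its call without control 2, slick 1 or 2, control 10-11 or 14, or slick 7 or 8 (adjusted p = 0.055 to 0.21), with DESeq2 (0.057) and with lines summed (0.13), and the other 5 kept theirs without any 1 library. For source 0 of 22 were called, against 0.562% of all genes. An unadjusted p below 0.05 by edgeR's test was held by 4 of the 22 (PLOD1, FXR2, SOAT2 and SOAT1) and by 812 of all 8898 genes tested. DESeq2 also called 0, with 20 of the 22 genes left without an adjusted p.

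The counts behind each gene came from its most abundant line, and 12 of the 22 genes had other lines with different counts, 33 in all. Of these, 25 also fell to 0.25 or less of their 24 hpf mean in controls at both later ages and 8 did not. The 8 include 4 lines of OBSL1, which returned to between 52% and 103% of the 24 hpf mean at 96 hpf where its chosen line was at 14.8%. TACR1 had 2 of the 8, with 28% and 29.8% left at 48 hpf, and GREB1 and ADAMTS16 had 1 each. For OBSL1 the loss by 96 hpf is therefore that of its chosen line and of 1 sparse line (22.5% left), not of all its lines. With all lines of an identifier summed the rule chose 24 genes, 17 of them among the 22.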

How the data were processed

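RNA-seq of pooled whole mahi-mahi embryos and larvae was used, in 32 samples of 9 groups. The authors deposited raw read counts per line of a table with human gene identifiers (hg19, HTSeq and DESeq2 are named in the submitters' processing notes, without versions). By what match fish reads reached human genes is a step not given in the sources used here. Per the file headers, the authors' 6 comparison tables hold, as DESeq2 names them, a mean normalised count per gene (a signal averaged over samples), the log2 fold change of oil over control with its standard error, the Wald statistic (a score), and the p-value with its adjusted p. They were read for the 22 genes, as a second source of calls.

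Each of 12653 identifiers (12210 with a symbol) was represented by its line of highest total. Lines lacking any identifier numbered 332 and held up to 0.043% of the counts of 1 sample; they were dropped, and identifiers with identical counts were tested once, leaving 10998 features with a count. CPM are counts divided by the library's sum over the kept lines, times 1000000; these lines hold 1895511 to 2777955 counts per sample. The precision of low genes is limited by this depth. Control samples whose chi-square p was at least 0.001 were summed, in 5 pairs.

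Tests were edgeR 4.0.16 quasi-likelihood tests in R 4.3.3 with TMM scaling and edgeR's default low-count filter, and Benjamini-Hochberg adjustment over all genes tested, called below 0.05. Oil comparisons were fitted per stage on 9 libraries (7757, 8060 and 8511 genes at 24, 48 and 96 hpf), and changes between stages and interactions on all 27 libraries (8898 genes). Every adjusted p printed comes from these fits unless DESeq2 (version 1.42.0), the authors' deposited table, a left-out library or summed lines are named. Fits with a library left out or lines summed used the same edgeR test. The scripts were tested on simulated counts. A ± after a log2 change is a standard error, and after a mean an SD.

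The named genes are the 22 members and those nearest each limit. The purine, melanin and muscle genes named outside the set were picked from the lists that hold at least 2 members, after their values were seen. The members and lists were chosen with earlier results of these data known. Other scalings, filters, lines, fits and left-out libraries were tried as alternatives.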

Additional observations from a re-analysis of the deposited data

Results flagged for a closer look

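The effect of slick oil differed between 96 and 24 hpf, by the interaction test, for 6 of the 22 genes, against 7.46% of all genes. On the log2 scale the difference was -1.30 for ITGB1BP2, -0.94 for FXR2, -0.75 for UNC45B, 1.30 for SOAT2, 1.16 for SOAT1 and 0.57 for PPAT. Between 48 and 24 hpf it differed for 1 of the 22, GREB1, by -0.67, against 0.674% of all genes. The control course in these contrasts chose the genes, so nothing is read from the counts against all genes. The calls of PPAT and GREB1 were lost in several fits with 1 library left out, with DESeq2 and with lines summed.

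In source embryos NEXN and GREB1 stood on opposite sides of all control libraries at 2 ages. The share of all genes that did so is not given here, so neither gene is taken as unusual. NEXN was at 0.912-fold the control CPM at 24 hpf and at 1.15-fold at 48 hpf, a difference that did not pass the interaction test (log2 0.32, edgeR adjusted p = 0.63). GREB1 was at 1.08-fold the control CPM at 24 hpf, against 0.725-fold at 48 hpf, which did not pass it either (log2 -0.59, edgeR adjusted p = 0.19). At 96 hpf its source CPM was 1.69-fold that of controls, on 7, 8 and 13 counts in source and 9, 12 and 6 counts in control libraries, of which 2 of 3 are pooled from a pair of samples. Its difference between 48 and 96 hpf was not tested. No group held 4 or more libraries, so single libraries were not screened for standing apart.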

How the results depend on the processing

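Of 242 recomputed counts of members or calls, 197 stayed within 1.5 times the reported count, and no single call changed direction. The calls of SOAT2, SOAT1, ITGB1BP2 and UNC45B in slick against control and slick against source at 96 hpf held under every alternative run, as did FXR2 in slick against control. In slick against control at 24 hpf the count of 2 became 4 with no low-count filter, 1 with DESeq2 and 0 with all lines summed. In source against control at 24 hpf the count of 4 became 1 with DESeq2, 2 with all stages in 1 fit, 0 with lines summed and 1 to 3 with a library left out. At 48 hpf the slick count of 1 became 0 with DESeq2 and with lines summed and 0 to 1 with a library left out, and the source count of 0 became 2 with no filter, with all stages in 1 fit and with control columns as deposited, and 0 to 1 with a library left out. The counts of 1 for source at 96 hpf, slick against source at 24 hpf and the slick interaction at 48 hpf became 0 with DESeq2 and 0 with lines summed, and that of slick against source at 48 hpf 0 with lines summed. Each of these was 0 to 1 with a library left out. The cause was not tested. A limit of 0.333 of the 24 hpf level in place of 0.25 gave 47 genes, and a limit of 0.2 gave 11.

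Slick and control samples at 24 hpf share replicate numbers, but the correlations of their deviations were 0.03, -0.01 and 0.03, so the numbers were not taken to pair them. With the replicate block 4 members were called (PAICS, CYLD, PPAT and SRM) against 3 (CYLD, PPAT and SRM) in the same libraries without the block, a fit added after seeing the data. At 96 hpf the 5 lowest genes and at 48 hpf 2 were too shallow to test.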
